A study of Mus musculus with 16 samples.

Results

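Myoblast fusion and membrane repair genes were followed as a group of 10, out of 49585 genes in each count table. They are *Mymk*, *Mymx*, *Jam2*, *Jam3*, *Dock1*, *Dock5*, *Cav3*, *Dysf*, *Myof* and *Trim72*, chosen by name, and all 10 had a row in both tables (*Mymx* under its older symbol *Gm7325*). Gene counts came from 16 RNA-seq libraries of C2C12, an established line of mouse myoblasts, which form multinucleated myotubes by fusion once serum is lowered. The first table compared wild-type cells (WT) with AMPK-KO cells, in which both catalytic subunits of AMP-activated protein kinase were disrupted with CRISPR/Cas9, at day 0 of differentiation (d0, myoblasts) and at day 8 (d8). Each of these 4 groups had 2 libraries, and the labels do not say which of the clonal knockout lines each library came from. Myotubes were grown from confluent cells in medium with equine serum. The second table, at d0, compared TET2-WT with TET2-S97E cells. Both carry the AMPK knockout and a FLAG-BirA tag at the endogenous *Tet2* gene, and TET2-S97E cells also carry the substitution of serine by glutamate that stands for phosphorylation by AMPK. Each TET2 genotype had 2 clones with 2 libraries each. There were no WT libraries beside the TET2 clones, and each table was normalized on its own, so levels are not compared across the tables.

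Myoblasts fuse after they leave the cell cycle. *Mymk* (myomaker) and *Mymx* (myomixer) encode membrane proteins that together drive the merging of myoblast membranes and are made mainly during differentiation. *Jam2* and *Jam3* encode immunoglobulin-type adhesion molecules that bind each other between neighbouring cells, and *Dock1* and *Dock5* encode exchange factors that load the GTPase Rac, which remodels actin at the contact. *Cav3* encodes the caveolin of muscle caveolae. *Dysf* (dysferlin) and *Myof* (myoferlin) are ferlins, calcium-binding membrane proteins with roles in repair and fusion, and *Trim72* encodes MG53, a ubiquitin ligase that gathers vesicles at membrane tears. Mutations of *Dysf* and *Cav3* cause muscular dystrophies.

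The members lie on 8 chromosomes of GRCm38. *Mymk* (ENSMUSG00000009214.9) is at chr2:27061636-27072179 on the minus strand and *Mymx* (ENSMUSG00000079471.4) at chr17:45600971-45602102, also minus. *Jam2* (ENSMUSG00000053062.15) is at chr16:84774123-84825928 on the plus strand and *Jam3* (ENSMUSG00000031990.15) at chr9:27097384-27155421 on the minus strand. *Dock1* (ENSMUSG00000058325.6) spans chr7:134670654-135173639 on the plus strand and *Dock5* (ENSMUSG00000044447.4) chr14:67752135-67933442 on the minus strand. *Cav3* (ENSMUSG00000062694.7) is at chr6:112459505-112472872 and *Dysf* (ENSMUSG00000033788.15) at chr6:84008590-84211060, both on the plus strand. *Myof* (ENSMUSG00000048612.15) is at chr19:37899036-38043577 on the minus strand and *Trim72* (ENSMUSG00000042828.12) at chr7:128003949-128011033 on the plus strand. Exons of 3 members overlap antisense genes, *Trim72* with *Gm15533* by 617 bases, *Jam3* with *Gm48796* by 1159 bases, and *Dysf* with *Gm33024* by 105 and *Gm15475* by 352 bases. Whether the authors counted reads by strand was not stated, so reads of these pairs cannot be told apart there. *Gm15533* had at most 7 counts in any library, *Gm33024* at most 8, *Gm15475* at most 3 and *Gm48796* at most 50.

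Promoter sequences from RefSeq (GRCm38.p6) were matched for 5 of the 10 members: *Cav3*, *Dysf*, *Dock1*, *Myof* and *Trim72*. *Mymk*, *Mymx*, *Jam2*, *Jam3* and *Dock5* were not matched. The 250 bases before the start of *Cav3* and *Trim72* are shown because both genes rose from d0 to d8 in WT cells, and those of *Myof* because it was called lower in AMPK-KO cells on both days. Capitals mark CANNTG, the E-box hexamer to which myogenic factors of the MyoD family can bind, found on both strands at once because it is its own reverse complement. The regions are chr6:112459255-112459504 (plus strand), chr7:128004128-128004377 (plus strand) and chr19:38043578-38043827 (minus strand), each written 5′ to 3′. The start that RefSeq gives for *Trim72* lies downstream of the gene's first base in the GENCODE annotation, so its window falls inside the gene as placed above.
Cav3: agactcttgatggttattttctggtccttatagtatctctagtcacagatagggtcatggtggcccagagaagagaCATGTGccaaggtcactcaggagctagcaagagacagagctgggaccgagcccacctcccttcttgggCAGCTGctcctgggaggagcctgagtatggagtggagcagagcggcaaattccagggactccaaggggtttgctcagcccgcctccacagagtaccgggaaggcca
Trim72: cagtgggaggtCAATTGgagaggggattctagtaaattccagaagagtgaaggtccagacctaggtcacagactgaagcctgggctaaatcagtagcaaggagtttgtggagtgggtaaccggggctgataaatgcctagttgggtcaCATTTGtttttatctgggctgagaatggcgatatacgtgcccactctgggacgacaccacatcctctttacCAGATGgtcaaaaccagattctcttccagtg
Myof: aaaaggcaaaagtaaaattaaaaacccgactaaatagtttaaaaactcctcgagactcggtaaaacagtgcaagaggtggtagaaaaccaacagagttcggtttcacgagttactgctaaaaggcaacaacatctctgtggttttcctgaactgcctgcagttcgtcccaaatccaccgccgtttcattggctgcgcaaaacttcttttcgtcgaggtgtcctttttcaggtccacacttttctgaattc
The *Cav3* window held 2 E-boxes, CATGTG beginning 174 bases and CAGCTG beginning 106 bases before the start. *Trim72* held 3, beginning 239, 102 and 31 bases before the start that RefSeq gives, and *Myof* held 0. *Dock1* held 1 and both listed promoters of *Dysf* held 0. Of the 32851 mouse promoter windows of this length, 66.2% held CANNTG, 13% held CAGCTG and 2.92% held a MEF2 site, of which the windows of the matched members held 0. These matches describe letters only.

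Total counts ran from 17883417 to 24663079 in the 8 libraries of the first table and from 19801909 to 37790358 in the second, where replicate 2 was the deeper library of every clone. Levels below are CPM, counts divided by library size after TMM scaling, given for replicate 1 and then replicate 2. A value of 3 counts or fewer in a library, 0.0790 to 0.165 CPM at these depths, is taken as not detected. Counts of replicate libraries varied beyond sampling noise (chi-square per degree of freedom 29.4 to 107 over the 8 pairs). The AMPK-KO d8 pair was the most uneven, and its summed CPM of 10 muscle differentiation genes was 2964 and 12578 against 7701 and 10299 in WT. The study's legends speak of independent AMPK-KO lines for its RNA-seq, so the AMPK-KO pairs may each hold different lines, but the labels do not tie a library to a line. For WT cells and for libraries of 1 TET2 clone the sources used here do not mention separate cultures, and the spread behind p-values may there be technical.

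All libraries held RNA of the muscle gene *Des* (at least 17070 counts). The leukocyte genes *Ptprc* and *Itgam* had at most 1 count and *Adgre1* had 0 counts in every library. The 6 fibroblast markers differed. *Thy1* and *Tcf21* had at most 4 and 0 counts and *Lum* had 0 to 542. *Pdgfra* had 245 to 1917 counts, *Col1a1* 597 to 30872 and *Dcn* 201 to 29147. Summed over 6 fibroblast markers, CPM at d8 was 1363 to 2868 in WT and 312 to 509 in AMPK-KO cells, and *Col1a1* was called lower there (log2 fold change −4.11, SE 0.611, edgeR adjusted p = 0.0223). At d0 the sum was 307 to 622 in WT and 123 to 168 in AMPK-KO cells. In the TET2 table it was 259 to 270 and 652 to 869 in TET2-WT clones 1 and 2, and 375 to 437 and 742 to 1326 in TET2-S97E clones 1 and 2. Over all libraries the summed CPM of 6 markers was at most 8.31 for leukocytes and 13.1 for endothelial cells, 25.9 to 116 for adipocytes, mostly *Cebpa* and *Pparg*, and 1272 to 5310 for smooth muscle, mostly *Des* and *Acta2*, with at most 16 counts of *Myh11*. The part of these genes in the results below was not tested. In such bulk libraries fewer differentiating cells and less RNA per cell cannot be told apart.

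**Figure D1:**
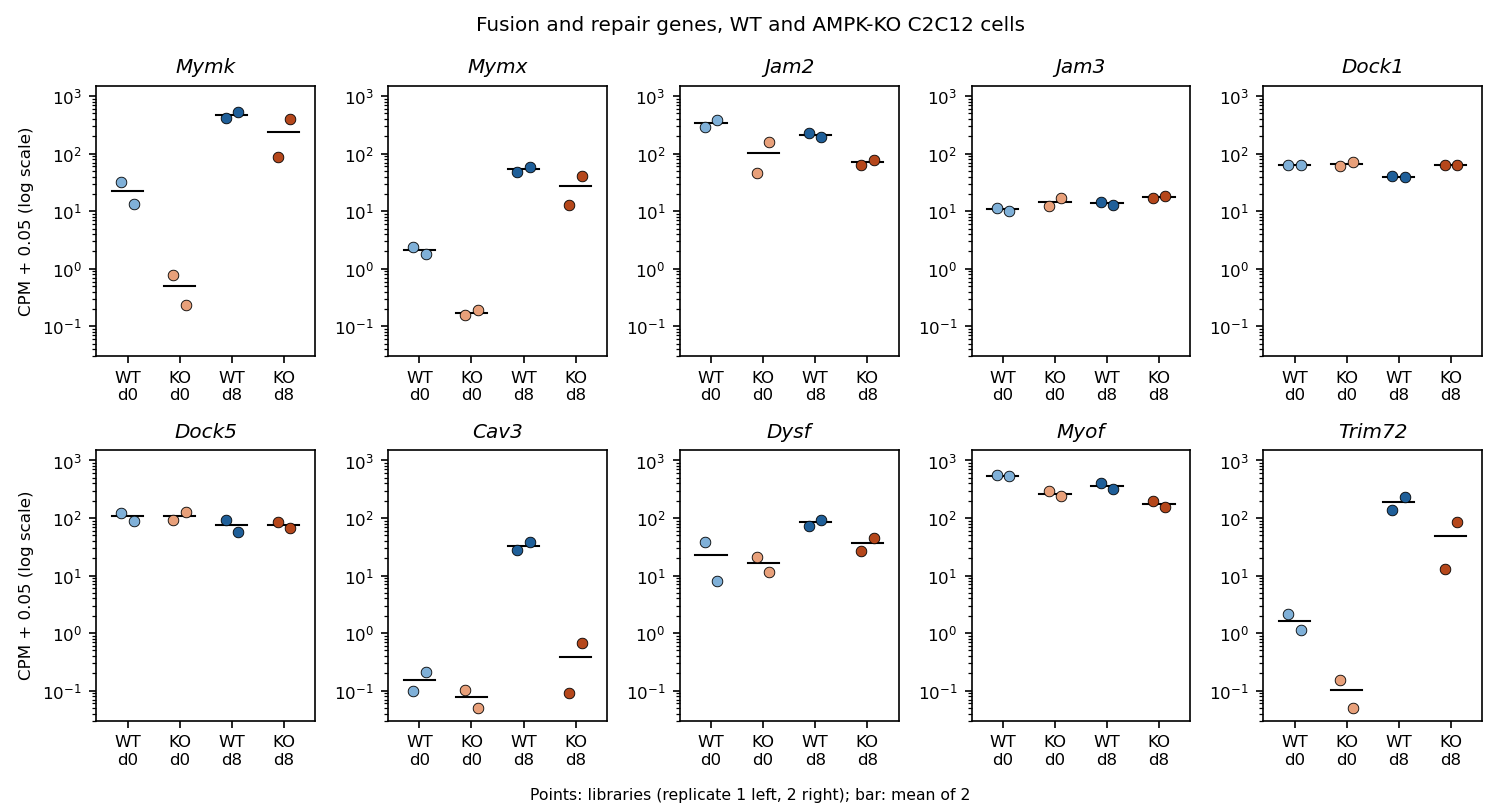
Level of each of the 10 genes in the WT and AMPK-KO libraries, as CPM plus 0.05 on a log axis, with 1 point per library and a bar at the mean of 2. *Mymk*, *Mymx* and *Trim72* are low at d0 and higher at d8 in both genotypes, *Cav3* is high only in the 2 WT libraries at d8 (27.2 and 38.9 CPM), and *Jam3*, *Dock1* and *Dock5* vary least.

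At d0, the loss of AMPK went with lower RNA of both fusogens and of *Myof*. Muscle differentiation genes were lower as well, with a median log2 fold change of −3.29 and negative values in all 9 tested, 2 of them called. Among these, *Myog* had 29.5 and 19.6 CPM in WT and 0.628 and 0.561 CPM in AMPK-KO libraries. Of the 10 members, 3 were called lower and 0 higher in AMPK-KO cells at d0 by edgeR's quasi-likelihood test (adjusted p under 0.05 over 14329 genes), where 2.83% of all genes were called lower and 0.698% higher. *Mymk* had 32.2 and 13.2 CPM in WT and 0.732 and 0.187 CPM in AMPK-KO libraries, the latter from 14 and 4 counts. Every AMPK-KO library was below every WT library, and the fitted log2 fold change was −5.64 (SE 1.06, edgeR adjusted p = 0.0331). From the summed counts, 912 against 18, the level in WT was 52.4 times that in AMPK-KO cells, with a 95% exact interval of 32.9 to 88.8 that covers counting error only. *Mymx* had 2.36 and 1.73 CPM in WT against 0.105 and 0.140 CPM in AMPK-KO libraries, which is 81 against 5 counts in all. Both AMPK-KO libraries lay at or under the floor, so the fitted size of the fall of *Mymx* depends on the prior count (log2 fold change −3.99, SE 0.947, edgeR adjusted p = 0.0447). The ratio from summed counts was 16.7, with an interval of 6.89 to 53.0 that again covers counting error only.

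*Myof*, the ferlin of young myoblasts, had 558 and 529 CPM in WT and 291 and 238 CPM in AMPK-KO cells at d0. The groups did not overlap, and the log2 fold change was −1.04 (SE 0.210, edgeR adjusted p = 0.0478). *Trim72* was barely present at d0, with 43 and 20 counts in WT libraries against 2 and 0 after the knockout. Its ratio of 32.6 had a counting interval of 8.65 to 275, and it was not called (edgeR adjusted p = 0.176), although DESeq2 called it (adjusted p = 0.0149). *Jam2* had 288 and 389 CPM in WT and 45.3 and 160 CPM in AMPK-KO cells. The AMPK-KO replicates lay far apart, and the log2 fold change of −1.72 (SE 0.507) was not called (edgeR adjusted p = 0.127), although DESeq2 called *Jam2* too (adjusted p = 0.00675). The remaining members were not called. *Jam3* had 11.5 and 9.97 CPM in WT and 12.1 and 17.2 CPM in AMPK-KO cells, *Dock1* ranged from 60.9 to 72.7 CPM and *Dock5* from 90.4 to 127 CPM over the 4 libraries. *Dysf* had 37.5 and 7.86 CPM in the WT pair alone, a spread that held both AMPK-KO values (21.1 and 11.5 CPM). *Cav3* had 3 counts or fewer in all 4 libraries and is given no fold.

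Over the 10 members the median fitted log2 fold change at d0 was −1.38, or −0.76 with *Cav3* set to 0, against −0.00 over all genes tested. In 5 of 10 members both AMPK-KO libraries were below both WT libraries, as in 25.7% of all genes tested, and in *Jam3* both were above, as in 23.7%. The 3 calls rested on few libraries, and in a fit of the d0 libraries alone *Myof* was lost (adjusted p = 0.0736), as it was with upper-quartile scaling (adjusted p = 0.0542). In fits that left out 1 library of the first table, *Mymk*, *Mymx* and *Myof* were all lost without WT d0 replicate 1, AMPK-KO d0 replicate 1 or 2, or WT d8 replicate 1 or 2, and only *Mymk* was left without WT d0 replicate 2. The fitted changes of *Mymk* ran from −6.89 to −4.87 in these fits. *Jam2* was called without AMPK-KO d0 replicate 2 (adjusted p = 0.0370), and *Trim72* without AMPK-KO d8 replicate 1 or 2 (adjusted p = 0.0317 and 0.0294).

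At d8 the picture differed by gene. *Cav3* and *Myof* were called lower and *Dock1* higher in AMPK-KO cells, while *Mymk* and *Mymx* were not called. This is 2 of 10 members lower, where 3.98% of all genes were called lower, and 1 of 10 higher, where 1.36% were. The median of the members was −1.005, against 0.04 over all genes tested. *Cav3* was at 27.2 and 38.9 CPM in WT, from 495 and 829 counts, and at 0.041 and 0.631 CPM in AMPK-KO libraries, from 1 and 13 counts. The WT libraries were far above both AMPK-KO libraries, with a log2 fold change of −6.66 (SE 0.839, edgeR adjusted p = 0.0128). The level in WT was 108 times that in AMPK-KO cells, with a counting interval of 64.2 to 198. Of the 14 AMPK-KO counts 13 came from replicate 2, and the log2 fold change was −5.68 without replicate 1 and −9.49 without replicate 2. *Myof* had 407 and 322 CPM in WT and 201 and 155 CPM after the knockout, a log2 fold change of −1.04 (SE 0.210, edgeR adjusted p = 0.0392) without overlap. *Dock1* had 40.2 and 38.8 CPM in WT and 63.2 and 64.2 CPM in AMPK-KO cells. It was the member called higher, by 0.69 on the log2 scale (SE 0.145, edgeR adjusted p = 0.0420).

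Both fusogens reached high levels in 1 of the 2 AMPK-KO libraries. *Mymk* had 416 and 537 CPM in WT and 87.1 and 398 CPM in AMPK-KO cells at d8. Replicate 2 lay close under the WT libraries and replicate 1 well below them, and the log2 fold change of −0.97 (SE 0.712) was not called (edgeR adjusted p = 0.465). For *Mymk* it was −2.48 without AMPK-KO d8 replicate 2 and −0.24 without replicate 1, neither called. *Mymx* had 48.6 and 58.0 CPM in WT and 12.7 and 41.6 CPM in AMPK-KO cells, and was not called (log2 fold change −0.97, SE 0.485, edgeR adjusted p = 0.288). *Trim72* had 139 and 234 CPM in WT against 12.9 and 85.4 CPM in AMPK-KO cells, and *Dysf* 73.5 and 93.7 against 26.9 and 45.2 CPM. In both genes the AMPK-KO libraries were the lower pair, and neither was called (log2 fold change −1.92, SE 0.759, edgeR adjusted p = 0.204 for *Trim72*, and −1.21, SE 0.654, edgeR adjusted p = 0.323 for *Dysf*). Without a filter on low counts edgeR called *Mymk*, *Mymx*, *Trim72* and *Dysf* lower at d8. Their edgeR adjusted p-values there were 0.000545, 0.0128, 5.68e-14 and 4.86e-05. The fitted changes were nearly the same as with the filter, so these p-values are not read as stronger evidence. *Jam2* had 229 and 191 CPM in WT and 62.5 and 78.3 CPM in AMPK-KO cells. Its log2 fold change of −1.58 (SE 0.508, edgeR adjusted p = 0.132) was called by DESeq2 (adjusted p = 0.0136), by edgeR on the d8 libraries alone (adjusted p = 0.0260) and without either AMPK-KO d0 library (adjusted p = 0.0271 and 0.0274), with a range of 1.61e-09 to 0.378 over the alternatives. *Jam3*, between 12.9 and 18.1 CPM, and *Dock5*, between 57.0 and 93.0 CPM, were not called.

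In 7 of 10 members both AMPK-KO libraries were below both WT libraries at d8, as in 27.9% of all genes tested, and in *Jam3* and *Dock1* both were above, as in 30% of all genes. Here too single libraries decided calls. In the fit of the d8 libraries alone, *Dock1* and *Myof* were lost (adjusted p = 0.0608 and 0.0700). *Cav3*, *Dock1* and *Myof* were all lost without WT d8 replicate 1 or 2, where the adjusted p of *Cav3* was 0.0597 and 0.0739 at log2 fold changes of −6.86 and −6.35. *Dock1* was also lost without WT d0 replicate 2, either AMPK-KO d0 library or either AMPK-KO d8 library, and *Myof* without any 1 of these 4 AMPK-KO libraries. Without AMPK-KO d8 replicate 2, *Mymx* and *Trim72* were called lower (log2 fold changes −2.10 and −3.88, adjusted p = 0.0204 and 0.0180), and without replicate 1 these were −0.34 and −1.10, not called.

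**Figure D2:**
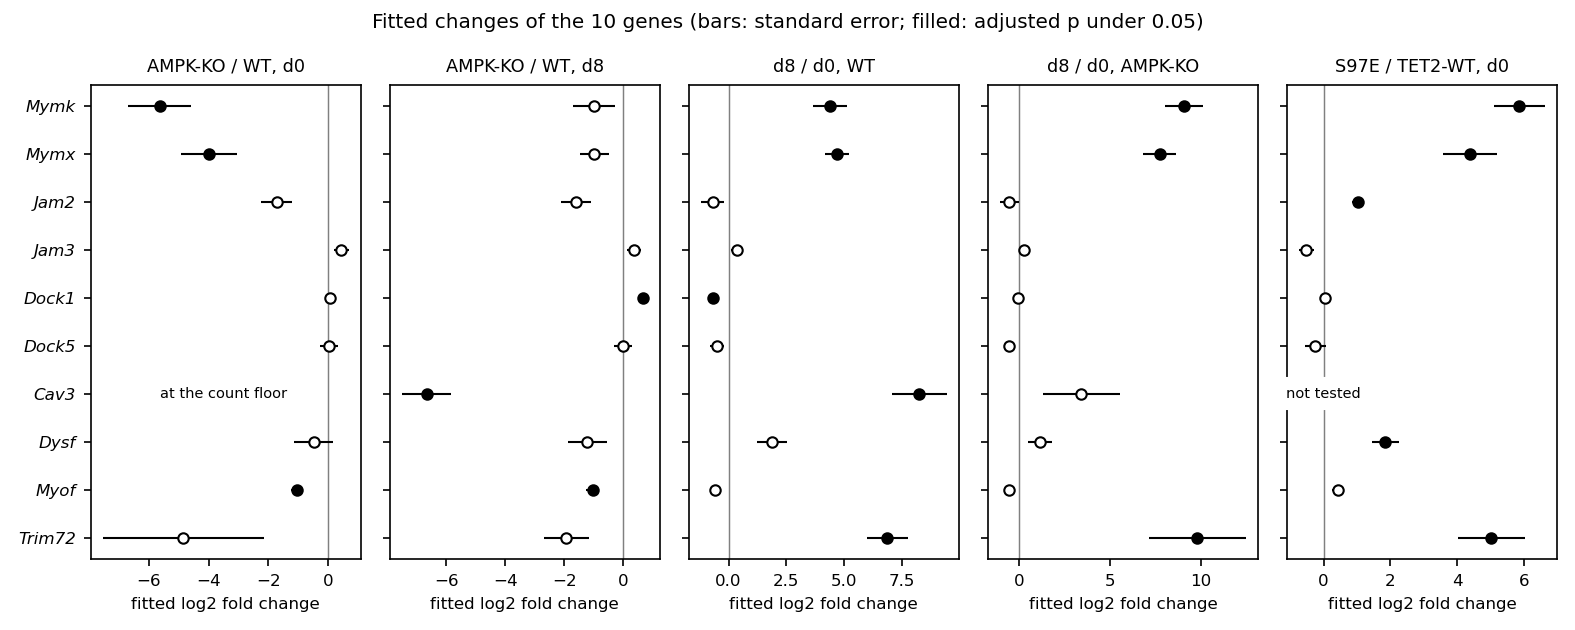
Fitted log2 fold change of each gene in 5 comparisons, with bars of 1 standard error and filled points for an adjusted p under 0.05 from edgeR. *Mymk* is at −5.64 at d0 and −0.97 at d8, and 5.86 between the TET2 genotypes. *Cav3* was at or under 3 counts at d0 and was not tested in the TET2 table.

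During differentiation of WT cells, 4 members rose, *Mymk*, *Mymx*, *Cav3* and *Trim72*, and *Dock1* fell. That is 4 of 10 members higher, where 5.78% of all genes were called higher, and 1 of 10 lower, where 6.58% were. The median of the members was 1.11, against 0.01 over all genes tested. The *Mymk* libraries of d0 (32.2 and 13.2 CPM) and d8 (416 and 537 CPM) gave a log2 fold change of 4.39 (SE 0.720, edgeR adjusted p = 0.0211). For *Mymx* it was 4.69 (SE 0.522, edgeR adjusted p = 0.0143) and for *Trim72* 6.87 (SE 0.883, edgeR adjusted p = 0.0146). *Cav3* went from 1 and 3 counts to 495 and 829 counts, a ratio of 329 with a counting interval of 128 to 1208 (edgeR adjusted p = 0.0143). *Dock1* fell by 0.67 on the log2 scale (SE 0.145, edgeR adjusted p = 0.0305). *Dysf* had values of 37.5 and 7.86 CPM at d0 and 73.5 and 93.7 CPM at d8, and its log2 fold change of 1.88 (SE 0.657) was not called (edgeR adjusted p = 0.112). *Dysf* was called by DESeq2 (adjusted p = 0.0141) and without WT d0 replicate 1, the library with 37.5 CPM (log2 fold change 3.39, edgeR adjusted p = 0.0157). *Myof* had a log2 fold change of −0.58 (SE 0.209) and was not called (edgeR adjusted p = 0.116). With the replicate number as a block *Myof* was called lower (edgeR adjusted p = 0.0470). In the fits without WT d0 replicate 2, WT d8 replicate 1 or WT d8 replicate 2, 0 of the 5 calls were left, at adjusted p-values of 0.0669 to 0.186, and *Dock1* was also lost without WT d0 replicate 1 (adjusted p = 0.0508) and in a fit of the WT libraries alone (adjusted p = 0.0690).

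AMPK-KO cells also gained fusogen RNA. *Mymk*, *Mymx* and *Trim72* rose from d0 to d8, 3 of 10 members higher where 4.81% of all genes were called higher, and 0 of 10 members were lower where 4.95% were. The median of the members was 0.71, against 0.02 over all genes tested. From 18 counts at d0 to 10331 counts at d8, *Mymk* rose 515-fold with a counting interval of 326 to 870 (edgeR adjusted p = 0.0191). *Mymx* went from 5 to 1169 counts (a ratio of 210, interval 89.7 to 648, edgeR adjusted p = 0.0179) and *Trim72* from 2 to 2076 counts (a ratio of 932, interval 258 to 7701, edgeR adjusted p = 0.0217). *Cav3* went from 1 to 14 counts, 13 of them in 1 library, and was not called (edgeR adjusted p = 0.191). *Cav3* was called without AMPK-KO d8 replicate 1 (adjusted p = 0.0459) and without a filter on low counts (adjusted p = 0.00660). *Dock1*, which fell in WT cells, had a log2 fold change of −0.07 (SE 0.144). Without AMPK-KO d0 replicate 1 or 2, 0 of the 3 calls were left (adjusted p = 0.0730 to 0.124). Leaving out 1 library moved the fitted log2 fold change from 7.56 to 10.28 for *Mymk* (9.06 with all), from 6.60 to 8.33 for *Mymx* (7.71) and from 7.83 to 12.98 for *Trim72* (9.79).

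Whether the d8 against d0 change itself differed between the genotypes was tested as an interaction, and 0 of 14329 genes were called in either direction (0% of all genes), the members included. At an unadjusted p under 0.05 there were 729 genes, 3 of them members, and the DESeq2 Wald test called 60 genes and 0 members. Without a filter on low counts edgeR called 449 genes, with *Mymk*, *Mymx* and *Trim72* among them. Their log2 differences there were 4.64, 2.99 and 2.89 (edgeR adjusted p = 1.75e-26, 6.37e-05 and 0.00491). With the filter nearly the same differences had unadjusted edgeR p-values of 0.00646, 0.0156 and 0.211. The smaller values rest on the same 2 libraries per group and are not read as stronger evidence. In the filtered fit *Mymk* had a difference of 4.67 on the log2 scale (SE 1.28), a larger rise in AMPK-KO cells from a lower start, with an edgeR adjusted p of 0.876. The differences were 3.02 (SE 1.06) for *Mymx*, 2.92 (SE 2.80) for *Trim72*, 0.61 (SE 0.204) for *Dock1* and −4.84 (SE 2.43) for *Cav3*, at edgeR adjusted p-values of 0.892 or more. *Cav3* had 3 counts or fewer in every d0 library, so its fitted difference depends on the prior count and is not read as a size. Leaving out 1 library gave 3.16 to 5.88 for *Mymk*, 1.90 to 3.67 for *Mymx*, 0.97 to 6.11 for *Trim72*, 0.46 to 0.78 for *Dock1* and −7.67 to −2.50 for *Cav3*. The d0 and d8 contrasts and these changes share libraries.

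Counted against *Mymk* within each library, the other differentiation genes of the group did not keep 1 ratio. For each 1000 *Mymk* counts at d8, the WT libraries held 117 and 108 counts of *Mymx* and the AMPK-KO libraries 146 and 105, and the genotypes overlapped. *Trim72* stood at 333 and 435 per 1000 in WT against 148 and 215 after the knockout. *Cav3* stood at 65.6 and 72.4 per 1000 in WT against 0.468 and 1.59 after the knockout, so AMPK-KO replicate 2, with 8195 *Mymk* counts, still had 13 of *Cav3*. Of the 9 muscle differentiation genes tested at d8, 0 were called, with a median log2 fold change of −0.57. Their fitted values ran from −4.40 for *Mef2c*, a myogenic transcription factor (128 and 260 CPM in WT, 0.978 and 17.6 CPM in AMPK-KO cells, edgeR adjusted p = 0.0749), to 1.99 for *Ckm*, muscle creatine kinase (31.1 and 94.6 CPM in WT, 91.2 and 407 CPM in AMPK-KO cells, edgeR adjusted p = 0.205), and *Myog* was at −1.42 (edgeR adjusted p = 0.155).

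The genes around *Cav3* on chromosome 6 were then read, a choice made after the values of *Cav3* were seen. Within 500 kb on each side the annotation has 6 protein-coding genes in the order *Lmcd1*, *Ssu2*, *Cav3*, *Oxtr*, *Rad18* and *Srgap3*. *Lmcd1* (chr6:112273758-112330425), which encodes a LIM domain protein, had 466 and 122 counts in WT at d0 and 423 and 377 at d8, while each AMPK-KO library held at most 1. It was called lower at d0 (log2 fold change −8.88, SE 1.72, edgeR adjusted p = 0.00888) and at d8 (−8.67, SE 1.28, edgeR adjusted p = 0.00567). *Ssu2* had 0 and 0 counts in WT at d0, 11 and 9 counts in WT at d8 and 0 counts in all AMPK-KO libraries. *Oxtr*, the oxytocin receptor gene, had 0 and 1 counts in WT at d0, 2 and 12 counts in WT at d8 and 0 counts in all AMPK-KO libraries. Farther along, *Rad18* had 36.2 to 52.8 CPM in the 4 libraries of d0, and *Srgap3* had 51.0 to 104 CPM in all 8 libraries, and neither was called between the genotypes. In the TET2 table, where all cells carry the AMPK knockout, *Lmcd1* had 0 to 5 counts, *Ssu2* 0, *Cav3* 0 to 4 and *Oxtr* 0 to 2 counts in the 8 libraries, while *Srgap3* had 50.3 to 93.0 CPM. These are d0 libraries, and at d0 *Ssu2*, *Cav3* and *Oxtr* were not detected in WT cells either. Low d0 counts of these genes therefore do not set the genotypes apart, while *Lmcd1* was detected in WT at d0. The cause of these low counts was not tested, and the DNA of the region was not analysed here.

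**Figure D3:**
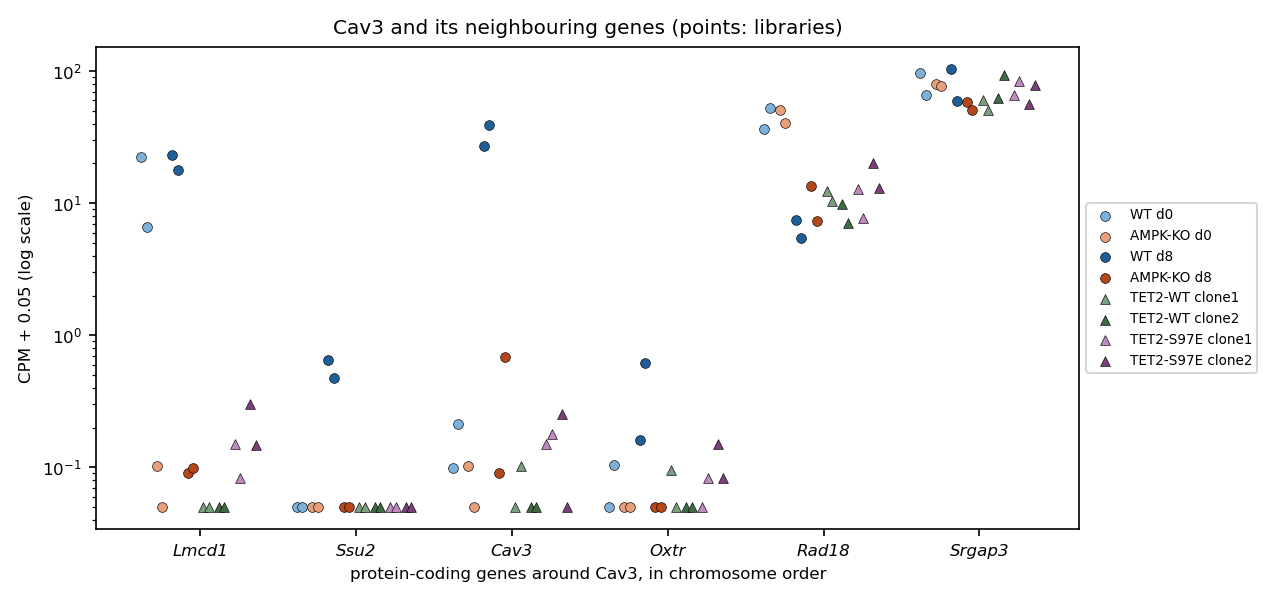
CPM plus 0.05, on a log axis, of the protein-coding genes around *Cav3* in chromosome order, with 1 point per library of both tables, which were normalized separately. *Lmcd1* lies at 6.61 to 23.3 CPM in the 4 WT libraries and at or under 0.252 CPM in the AMPK-null libraries, while *Rad18* and *Srgap3* are detected in every library.

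Related genes differed in level and in their course. Per kb of exon, *Myof* exceeded *Dysf* in every library, by 9.81 to 44.5 times in WT at d0 and 2.27 to 3.66 times in WT at d8. In AMPK-KO cells this ratio was 9.13 to 13.7 at d0 and 2.26 to 4.94 at d8. *Jam2* exceeded *Jam3* by 13.2 to 20.7 times in WT and by 1.98 to 4.90 times in AMPK-KO cells at d0, and by 7.86 to 8.45 and 1.92 to 2.30 times at d8. *Dock5* and *Dock1* were close, with ratios of 0.788 to 1.77 over the 8 libraries. Among caveolins per kb, *Cav1* exceeded *Cav3* by 1.48 to 2.47 times in WT at d8, and *Cav2* was at 0.280 to 0.299 of *Cav3* there. In AMPK-KO cells at d8, *Cav1* had 4213 and 2925 counts and *Cav2* had 838 and 751 counts where *Cav3* had 1 and 13. Neither *Cav1* (log2 fold change −0.24, SE 0.259, edgeR adjusted p = 0.622) nor *Cav2* (0.36, SE 0.325, edgeR adjusted p = 0.549) was called at d8.

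**Figure D4:**
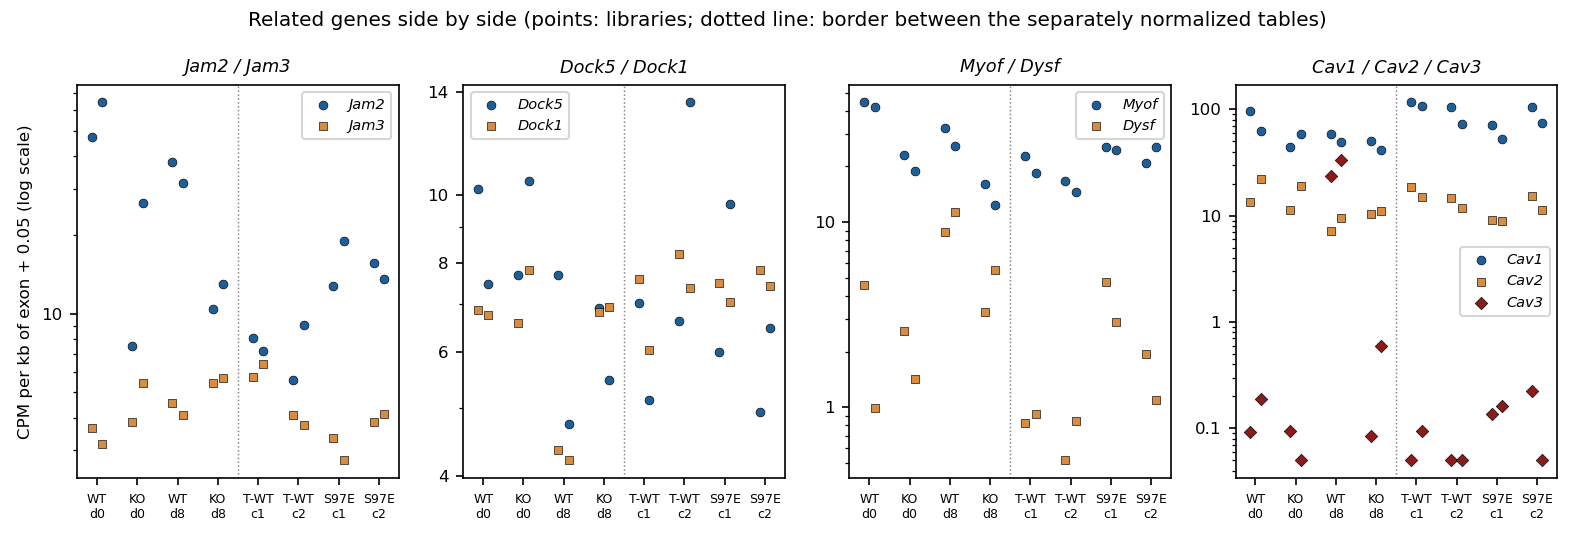
Related members in CPM per kb of exon plus 0.05, on log axes, with 1 point per library and a dotted line between the separately normalized tables. *Cav1* is within 2.47 times of *Cav3* in WT at d8 and far above it in AMPK-KO cells, where *Cav3* had 1 and 13 counts, and the gap between *Jam2* and *Jam3* is widest in WT at d0 (13.2 to 20.7 times).

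By Pearson's r of log2 CPM over the 8 libraries of the first table, the genes most like *Mymk* were *Stac3* (0.994), *Myog* (0.992), *Myom2* (0.989), *Mybph* (0.989) and *Myh3* (0.989), and those most like *Mymx* were *Ryr1* (0.998), *Cacna1s* (0.997), *Hfe2* (0.996), *Myh3* (0.995) and *Hrc* (0.995). *Myog* encodes the transcription factor myogenin and *Ryr1* the calcium release channel of muscle. *Mymx* was in place 10 for *Mymk* (0.982) and *Trim72* in place 23 (0.9749). *Cav3* (0.708), *Dysf* (0.774) and *Jam2* (0.160) had lower values, and those of *Dock5* (−0.685), *Dock1* (−0.649) and *Myof* (−0.040) were negative. The points share 2 days and the depth of their libraries, so these values only describe.

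Other genes of fusion and repair were read from fixed lists, to be set beside the shares of all genes called in each comparison above, such as 2.83% lower at d0 and 3.98% lower at d8, or 5.78% higher and 6.58% lower from d0 to d8 in WT. Of 31 tested genes in a list of 36 other fusion genes, 0 were called at d0 (median −0.34), and at d8 *Trio* alone was lower (log2 fold change −1.05, SE 0.162, edgeR adjusted p = 0.0178). *Trio*, which encodes an exchange factor for Rac, had 273 and 290 CPM in WT and 149 and 122 CPM in AMPK-KO cells. Of 34 tested genes in a list of 36 other repair genes, 0 were called at d0 (median −0.25) and *Capn1*, the calpain-1 protease, was the 1 lower at d8 (83.3 and 79.5 against 44.7 and 42.5 CPM, log2 fold change −0.90, SE 0.180, edgeR adjusted p = 0.0373). Of 9 tested genes of muscle differentiation, 2 fell below WT at d0 by the same test (median −3.29) and 0 at d8 (median −0.57). During WT differentiation 5 other fusion genes rose and 1 fell, among them *Cdon* (282 and 224 to 584 and 701 CPM, edgeR adjusted p = 0.0149), *Il4ra* (42.3 and 53.0 to 150 and 103 CPM, edgeR adjusted p = 0.0156) and *Itga3*, which fell (edgeR adjusted p = 0.0238). Of the repair genes 2 rose and 7 fell, the rises including *Capn3* (log2 fold change 1.88, edgeR adjusted p = 0.0159) and the falls *S100a10* and its partner *Anxa2* (−0.98 and −1.18, edgeR adjusted p = 0.0169 and 0.0179). In AMPK-KO cells 1 fusion gene rose, *Cdon*, and of the repair genes *Capn3* and *Bin1* rose and 2 fell, *Anxa2* among them (−1.04, edgeR adjusted p = 0.0299).

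**Figure D5:**
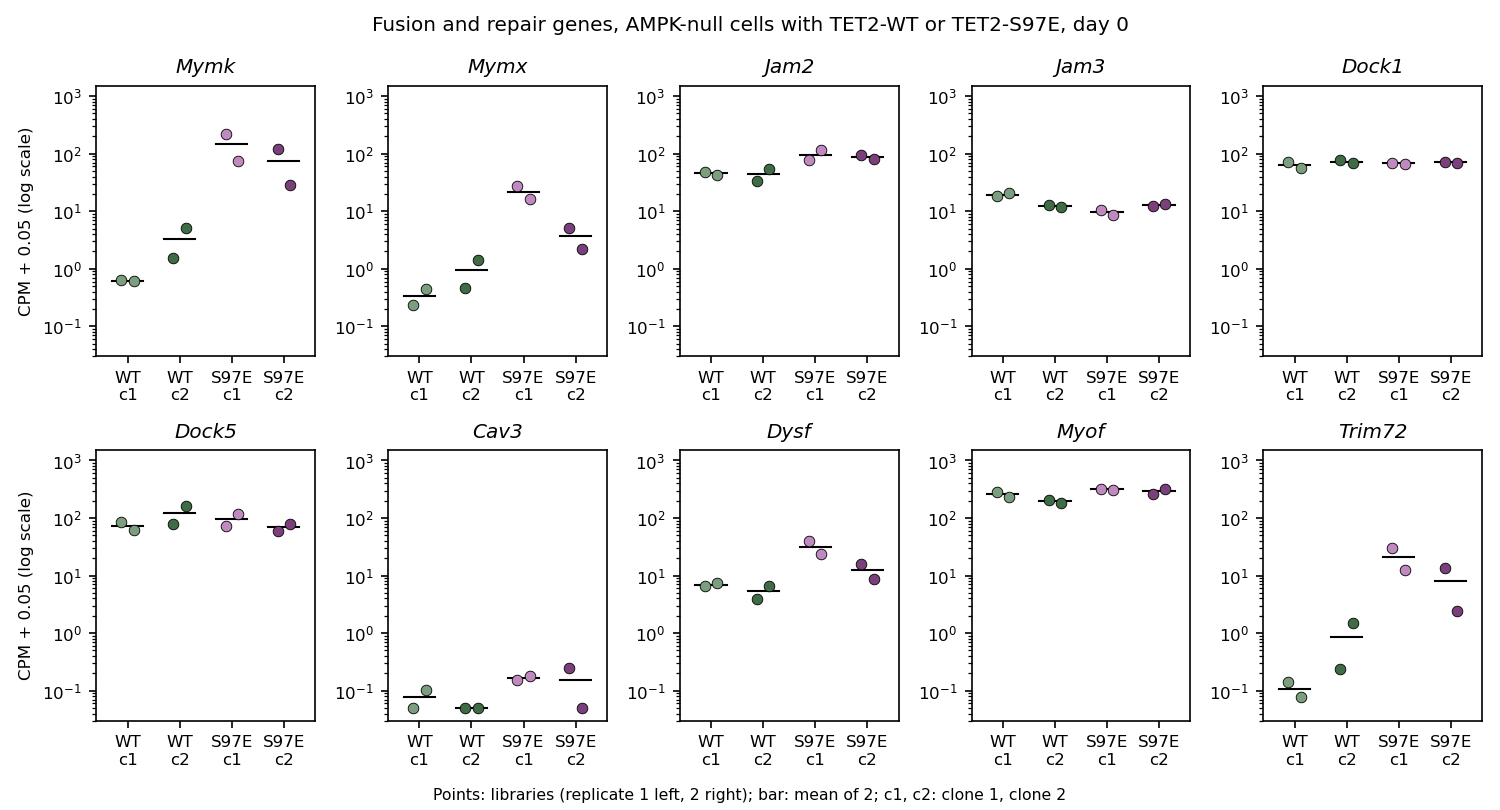
Level of each gene in the TET2 libraries, as CPM plus 0.05 on a log axis, with 1 point per library, a bar at the mean of 2, and the 2 clones of each genotype apart. *Mymk* lies at 0.553 to 5.05 CPM in TET2-WT and 28.9 to 223 CPM in TET2-S97E libraries, and *Cav3* is near 0 in all 8.

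On the AMPK-null background, d0 libraries of TET2-S97E cells held more RNA of both fusogens, *Jam2*, *Dysf* and *Trim72* than those of TET2-WT cells. These 5 differences were called when libraries were the unit. They were not called when clones were the unit, where the fitted changes stayed positive. By edgeR's quasi-likelihood test over 13433 genes, 5 of the 9 members tested were called higher, where 3.71% of all genes were, and 0 lower, where 3.28% were. The median of the members was 1.04, against 0.01 over all genes tested. Muscle differentiation genes were higher as well, with a median of 3.92 and positive fitted changes in all 9 tested. With counts summed per clone, 2 against 2, the adjusted p-values of these 5 members were 0.277 to 0.366, and 0 of all genes were called. With the clone as a random effect in limma-voom they were 0.0650 to 0.185, with 166 genes called and 0 members. All TET2-S97E libraries were above all TET2-WT libraries in these 5 members, as in 7.3% of all genes tested. The fitted changes of the 5 members in these models were 1.03 to 6.12 on the log2 scale, all positive.

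*Mymk* had 0.587 and 0.553 CPM in TET2-WT clone 1 and 1.51 and 5.05 CPM in clone 2, and 223 and 75.4 CPM in TET2-S97E clone 1 and 123 and 28.9 CPM in clone 2. All TET2-S97E libraries were above all TET2-WT libraries (log2 fold change 5.86, SE 0.758, edgeR adjusted p = 0.00832 over libraries). *Mymx* had 0.181, 0.395, 0.412 and 1.39 CPM in TET2-WT and 27.5, 15.9, 5.09 and 2.15 CPM in TET2-S97E libraries, clone 1 first. The lowest TET2-S97E value lay less than 1 CPM above the highest TET2-WT value (log2 fold change 4.39, SE 0.812, edgeR adjusted p = 0.0217). *Trim72* had 2, 1, 4 and 41 counts in TET2-WT libraries and 587, 389, 271 and 74 counts in TET2-S97E libraries (0.026 to 1.46 against 2.42 to 29.6 CPM). The log2 fold change was 5.02 (SE 0.994, edgeR adjusted p = 0.0261). With the replicate number as a block *Trim72* was not called (edgeR adjusted p = 0.0522).

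*Jam2* showed a smaller but even difference. Its levels were 48.3, 43.1, 33.3 and 54.3 CPM in TET2-WT and 76.8, 115, 94.6 and 81.5 CPM in TET2-S97E libraries, without overlap (log2 fold change 1.04, SE 0.180, edgeR adjusted p = 0.0137). *Dysf* had 6.46, 7.27, 3.89 and 6.62 CPM in TET2-WT and 39.3, 23.7, 15.7 and 8.75 CPM in TET2-S97E libraries (log2 fold change 1.85, SE 0.408, edgeR adjusted p = 0.0314). With the replicate block *Dysf* was not called (edgeR adjusted p = 0.0545). Its clone 2 values lay nearer to TET2-WT. *Myof* had 182 to 287 CPM in TET2-WT and 264 to 321 CPM in TET2-S97E libraries, which overlapped, and was not called (log2 fold change 0.42, SE 0.157, edgeR adjusted p = 0.148). *Jam3* (8.62 to 20.4 CPM), *Dock1* (55.9 to 76.4 CPM) and *Dock5* (59.4 to 164 CPM) were not called either, with log2 fold changes of −0.51 (SE 0.221), 0.03 (SE 0.120) and −0.25 (SE 0.311). *Cav3* had 0, 2, 0 and 0 counts in TET2-WT and 2, 4, 4 and 0 counts in TET2-S97E libraries, and did not pass the filter for testing. In TET2-S97E clone 1 replicate 1, with 4420 counts of *Mymk*, *Cav3* had 2.

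Calls over libraries also turned on which clone was left out. Without TET2-WT clone 1, 0 of the 5 members were called, without TET2-WT clone 2 there were 3, without TET2-S97E clone 1 there were 2, and without TET2-S97E clone 2 all 5. Without TET2-S97E clone 1 the log2 fold change of *Mymx* was 2.58 (4.39 with all libraries) and that of *Dysf* 1.001 (1.85), while *Mymk* without TET2-WT clone 1 stood at 5.08 (5.86) with an adjusted p of 0.0642. Leaving out single libraries, 2 members were called without TET2-WT clone 1 replicate 1 or 2 or clone 2 replicate 1, and 3 without TET2-S97E clone 1 replicate 1. *Mymk* and *Jam2* were called without any 1 of the 8 libraries.

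The clones of a genotype differed as well. Between the TET2-S97E clones *Mymx* was lower in clone 2 (log2 fold change −2.59, SE 0.530, edgeR adjusted p = 0.0274), 1 of 9 members where 2.82% of 14459 genes were lower, with 0 members higher where 3.35% were. *Mymx* lost this call without TET2-S97E clone 1 replicate 1 or clone 2 replicate 2, or either library of TET2-WT clone 1 (adjusted p = 0.0718 to 0.117). *Dysf* had a log2 fold change of −1.36 (SE 0.356, edgeR adjusted p = 0.0591, DESeq2 adjusted p = 0.00367) and was called in 4 of the edgeR fits that left out 1 library, at adjusted p-values of 0.0252 to 0.0456. These were the fits without TET2-WT clone 2 replicate 1 or 2, TET2-S97E clone 1 replicate 2 or TET2-S97E clone 2 replicate 1. Neither *Trim72* (log2 fold change −1.40, SE 0.793) nor *Mymk* (−0.97, SE 0.681) was called with the filter on low counts. Without it edgeR called all 3 lower, at adjusted p-values of 1.15e-05 for *Dysf*, 0.000243 for *Trim72* and 0.000110 for *Mymk*. The fitted changes of these genes were nearly the same with and without the filter. Between the TET2-WT clones, where 0.463% of genes were higher and 0.394% lower in clone 2, 0 members were called in either direction and 4 had an unadjusted p under 0.05, as had 2958 of the 14459 genes tested. Without the filter on low counts edgeR called *Mymk*, *Trim72*, *Mymx* and *Dock5* higher in TET2-WT clone 2. Their edgeR adjusted p-values there were 3.53e-15, 5.93e-09, 0.00870 and 0.00706, against 0.202, 0.202, 0.255 and 0.268 with the filter at nearly the same fitted changes. The smaller values are not read as stronger evidence. *Trim72* had 2 and 1 counts in clone 1 and 4 and 41 in clone 2. *Dock5* had 84.9 and 61.7 CPM in clone 1 and 80.2 and 164 CPM in clone 2, which overlapped. *Mymk* had 34 counts in TET2-WT clone 1 and 175 in clone 2, a ratio of 6.19 with a counting interval of 4.27 to 9.23. Replicate 2 of clone 2 held 142 of the 175 *Mymk* counts, and without it the log2 fold change was 1.40 (2.54 with all libraries, not called in either fit). The summed CPM of the 10 muscle differentiation genes followed the same order, with 864 to 1122 in TET2-WT clone 1, 922 to 1400 in TET2-WT clone 2, 1068 to 2667 in TET2-S97E clone 2 and 4029 to 8218 in TET2-S97E clone 1. Neighbouring ranges in that order overlapped up to TET2-S97E clone 2. Of 4 fibroblast markers tested, 2 were higher in clone 2 of each genotype. Other fusion genes differed too, 5 higher and 1 lower in TET2-S97E clone 2, led by *Elmo1* (log2 fold change 4.61, SE 0.558, edgeR adjusted p = 0.00269), an adaptor of *Dock1*-type exchange factors, and *Cdh15*, the muscle cadherin, which was lower (−1.41, SE 0.232, edgeR adjusted p = 0.00930). Of the repair genes 1 was higher and 3 lower there. Between the TET2-WT clones, 2 fusion genes (*Cdon* and *Boc*) and 1 repair gene (*Ano5*) were higher in clone 2 and 0 lower.

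Of 31 other fusion genes tested between the TET2 genotypes, 2 were called higher and 2 lower, beside 3.71% and 3.28% of all genes, shares that hold for the lists that follow too. *Neo1*, a netrin receptor, had 186 to 221 CPM in TET2-WT and 267 to 361 CPM in TET2-S97E libraries (log2 fold change 0.69, SE 0.130, edgeR adjusted p = 0.0186), and *Adam12*, a metalloprotease, 3.48 to 9.33 and 14.4 to 22.5 CPM (edgeR adjusted p = 0.0260). *Kirrel3*, an adhesion gene related to nephrin, was lower (30.9 to 71.1 against 8.13 to 17.9 CPM, −1.81, SE 0.336, edgeR adjusted p = 0.0188). Of 32 repair genes tested, *Ehd4* alone was called (higher, 1.06, SE 0.252, edgeR adjusted p = 0.0380). Of 9 muscle differentiation genes tested, 6 were higher and 0 lower (median 3.92), and of 4 fibroblast markers 0 were called. These list genes were tested over libraries, and 0 genes were called with counts summed per clone.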

How the data were processed

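RNA-seq was analysed in 16 C2C12 libraries. Per the labels and the study's methods, the authors trimmed reads with Trim Galore 0.4.5, aligned them to GRCm38 with STAR 2.5.3a and counted them with featureCounts 1.5.3 against GENCODE M12. What was deposited are raw counts per gene, whole numbers in 1 table per experiment. Gene names, positions and exon lengths came from GENCODE M21, in which 49326 of 49585 identifiers were found.

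Counts were tested with edgeR 4.0.16 in R 4.3.3 (filterByExpr, TMM, quasi-likelihood test), with Benjamini-Hochberg adjustment over all genes tested and a threshold of 0.05. The first table was fitted as 4 groups. The second was fitted by genotype and, separately, by clone. Fitted fold changes carry a prior count of 0.125, so those of genes near 0 counts depend on it. An exact permutation test of 2 against 2 libraries cannot give a two-sided p under 0.333. Alternatives were DESeq2 1.42.0, other scalings and filters, a replicate block, each library or clone left out, counts summed per clone, and limma-voom (limma 3.58.1) with clone as a random effect. Where a left-out library left 1 in its group, it was assumed to vary like the others. Counting ratios have exact 95% binomial intervals. The fitting was tested on simulated data.

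The members and gene lists were chosen with earlier results of these data known. Named genes were the members, at most 3 called genes of each list and comparison with the lowest adjusted p, any muscle differentiation gene, and the 5 genes most like *Mymk* and *Mymx*. The neighbours of *Cav3* and single marker genes were named outside this rule.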

Additional observations from a re-analysis of the deposited data

Results flagged for a closer look

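*Trim72* in TET2-WT clone 2 replicate 2 stood apart from the other TET2-WT libraries, with 1.46 CPM (41 counts) against 0.026 to 0.183 CPM in the other 3. Among groups of 4 values chance sets about 1 in 20 apart in this way. The same library also had the highest TET2-WT values of *Mymk* (5.05 CPM), *Mymx* (1.39 CPM) and *Myog* (13.9 CPM against 0.407 to 2.10 CPM).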

How the results depend on the processing

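Of 962 alternative values for changes of single members, 799 kept their direction and their side of the threshold, 100 lost a call, 41 gained one and 22 changed sign, in each of which the cause was not tested. The DESeq2 size factors and upper-quartile scaling left every count of calls within 1.5 times, but upper-quartile scaling ended the call of *Myof* at d0 (adjusted p = 0.0542), leaving 2 members. The DESeq2 Wald test called 1393 genes at d0 (505 with edgeR) and 5 members (3), 1656 genes at d8 (766), 2762 for d8 against d0 in WT (1771), 2532 in AMPK-KO cells (1398), 60 for the difference of these changes (0), 1825 between the TET2 genotypes (938), 1383 between the TET2-S97E clones (892, with 2 members in place of 1) and 894 between the TET2-WT clones (124). Without a filter on low counts the calls were 2026 genes and 5 members at d0, 2503 and 8 at d8, 3293 genes in WT, 3039 and 5 in AMPK-KO cells, 449 and 3 for the difference, 1680 and 4 between the TET2-S97E clones and 1627 and 4 between the TET2-WT clones. The members gained there had nearly the same fitted changes as with the filter and much smaller p-values. The reason was not tested. At least 10 counts in every library left 201 genes and 0 members at d0, 270 and 0 at d8, 1 member in WT, 0 in AMPK-KO cells, 3 between the TET2 genotypes and 0 between the TET2-S97E clones. In the first table this filter left *Mymk*, *Mymx*, *Cav3* and *Trim72* untested, while *Myof* (adjusted p = 0.0647 at d0 and 0.0507 at d8) and *Dock1* (0.0776 at d8) were tested and lost their calls. The libraries of 1 day alone gave 335 genes at d0, and those of AMPK-KO cells alone 788 for d8 against d0. Counts summed per clone gave 0 genes and 0 members and the clone as a random effect 166 and 0.

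Leaving out 1 library gave 17 to 613 genes and 0 to 4 members at d0, 107 to 902 and 0 to 3 at d8, 0 to 2260 and 0 to 5 in WT, 0 to 1737 and 0 to 4 in AMPK-KO cells, 0 to 6 genes and 0 members for the difference, 304 to 1092 and 2 to 5 between the TET2 genotypes, 472 to 1014 and 0 to 2 between the TET2-S97E clones, and 0 to 313 genes and 0 members between the TET2-WT clones. Between the TET2 genotypes there were 183 genes and 0 members without TET2-WT clone 1, 625 and 3 without TET2-WT clone 2, 2 members without TET2-S97E clone 1 and 5 without TET2-S97E clone 2. These fits also have fewer degrees of freedom.

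Replicate numbers recur in every group, and the labels give no shared day or culture behind them. Deviations of same-numbered libraries correlated across genes at 0.119 to 0.324 for WT and AMPK-KO cells and at −0.036 to 0.512 for the TET2 clones, and with 2 numbers the pairing was not taken as given. With a replicate block 3 members were called between the TET2 genotypes (5 without, *Dysf* and *Trim72* being lost at adjusted p = 0.0545 and 0.0522), 1540 genes and 2 members between the TET2-S97E clones (*Dysf* gained, adjusted p = 0.0414), and 677 genes between the TET2-WT clones. The block gained *Myof* for d8 against d0 in WT (adjusted p = 0.0470).

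The changes of sign were in members not called. Leaving out 1 library gave −0.074 to 0.195 for *Dock1*, −0.227 to 0.274 for *Dock5* and −1.20 to 1.04 for *Dysf* at d0, where *Dysf* was positive without WT d0 replicate 1 and *Dock5* was also −0.165 without WT d0 replicate 2. At d8 *Dock5* ran from −0.299 to 0.412 and was 0.013 with the block. For d8 against d0 in AMPK-KO cells, *Jam2* ran from −1.20 to 0.647 and *Dock1* from −0.211 to 0.078, both positive without d0 replicate 2. Between the TET2 genotypes *Dock1* ran from −0.057 to 0.087, and was −0.011 with upper-quartile scaling, −0.069 without TET2-WT clone 1 and −0.013 without TET2-S97E clone 2, and *Dock5* ran from −0.480 to 0.116 and was 0.153 without TET2-WT clone 2. Between the TET2-S97E clones *Mymk* ran from −2.42 to 0.035 and *Jam2* from −0.372 to 0.200, and between the TET2-WT clones *Jam2* ran from −0.463 to 0.231.

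Members near the floor of 3 counts, such as *Mymx* and *Trim72* in AMPK-KO myoblasts and *Cav3* in AMPK-KO myoblasts and the TET2 clones, have wide ratios. On total counts in place of TMM, 78 of 80 group levels moved by no more than the spread of replicates, and *Dock1* and *Myof* in TET2-S97E clone 1 became 64.2 and 299.8 CPM (67.5 and 315 with TMM).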
